A study of Mus musculus with 42 samples.

Results

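Hepatic stellate cells are the pericytes of the liver sinusoid and its main store of vitamin A. In injured liver they are known to lose this store, to divide and to become contractile, matrix-producing myofibroblasts. Their resting and activated states are commonly read from the expression of a few genes, and 9 of these were followed here: Des, Lrat, Reln, Hhip, Ngfr, Acta2, Tagln, Vim and Pdgfrb. The 9 genes were chosen by name, with earlier results of these data known. Each matched exactly 1 of the 54446 genes in the count table. All 9 passed the filter on low counts and are among the 15574 genes tested.

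Liver RNA came from 42 female APOE*3-Leiden mice, which in every group carry a human APOE*3-Leiden transgene that makes their plasma lipids respond to diet, and was sequenced with 1 library per mouse. The healthy reference group of 10 mice stayed on chow. In the WTD group, 16 mice aged 8 to 14 weeks at the start ate a Western-type diet with 15% cocoa butter, 40.5% sucrose and 1% cholesterol, which held 0.05% sodium cholate from week 22 on, through a run-in of 3 weeks and the 32 weeks of the study. The atorvastatin group of 16 mice had the same age range, run-in and diet with the statin mixed in, at 3.0 mg/kg/day and from week 5 on at 4.5 mg/kg/day. Chow mice carry numbers that begin with AZ and all WTD-fed mice numbers that begin with Gen. What these prefixes stand for is not given in the sources used here, so whatever they mark cannot be told apart from the diet.

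The libraries held between 15661381 and 36224054 counts on genes, with a median of 19421089.5. Hepatocyte markers were high in every mouse, as the tissue label requires: their 8 genes summed to between 50070 and 155100 CPM (counts of a gene per 1000000 counts of the library, with library sizes scaled by TMM). A first set of libraries stood apart by its low number of detected genes: in 9 of the 42, over 20% of the genes with a mean of 1 to 2 CPM in their own group had no count at all (3 chow, 5 WTD and 1 atorvastatin mice). A further library that stood apart was that of chow mouse 1, labelled AZ#1, which held transcripts of striated muscle. There Acta1, the actin of skeletal muscle, stood at 819.8 CPM and the myosin gene Myh1 at 707 CPM, while no other mouse exceeded 0.843 CPM of Acta1 or 0.256 CPM of Myh1. All 13 skeletal muscle genes looked at, a list drawn up after these values were seen, were highest in this mouse among all 42. Many of the values below are also given without these 10 libraries.

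By function, the markers fall into 3 groups. Lrat, Reln, Ngfr, Hhip and Des describe the stellate cell as such. Lrat (ENSMUSG00000028003.6, GRCm38 chromosome 3, 82892579 to 82903973, minus strand) encodes the enzyme that esterifies retinol for storage. Reln (ENSMUSG00000042453.14, chromosome 5, 21884454 to 22344702, minus strand) encodes reelin, a secreted glycoprotein that stellate cells release. Ngfr (ENSMUSG00000000120.6, chromosome 11, 95568818 to 95587735, minus strand) encodes the neurotrophin receptor p75.

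Hhip (ENSMUSG00000064325.4, chromosome 8, 79965851 to 80058006, minus strand) encodes a membrane protein that binds hedgehog ligands and dampens the pathway. Des (ENSMUSG00000026208.9, chromosome 1, 75360329 to 75368579, plus strand) encodes desmin, an intermediate filament shared by stellate cells and all muscle. Acta2 (ENSMUSG00000035783.8, chromosome 19, 34241090 to 34255590, minus strand) and Tagln (ENSMUSG00000032085.5, chromosome 9, 45929619 to 45936058, minus strand) encode the contractile proteins α-smooth muscle actin and transgelin. Vim (ENSMUSG00000026728.9, chromosome 2, 13573927 to 13582826, plus strand) encodes vimentin, the intermediate filament of mesenchymal cells and leukocytes. Pdgfrb (ENSMUSG00000024620.11) encodes the PDGF receptor β, through which stellate cells are driven to divide. All 9 are protein-coding genes. Antisense genes overlap exons of Des, Reln and Tagln, another gene on the opposite strand (Pcsk7) overlaps exons of Tagln, and a small RNA gene overlaps an exon of Hhip.

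Promoter sequences of 3 markers are shown because the genes behaved differently in the comparisons: Acta2 carries the contractile program, Vim moved with both diet and drug, and Reln was higher with the drug. Each runs 5′ to 3′ on the strand of the gene, from 250 bases before the RefSeq start to 50 after it (GRCm38.p6). Capitals mark CArG-type elements (the site of serum response factor, here with at most 1 G or C in its AT core), the TATA motif TATAAA and the GC box GGGCGG, each searched on both strands. No marked match overlaps another in these sequences. The Acta2 window is chr19:34255324-34255623 (minus strand), the Vim window is chr2:13574061-13574360 (plus strand) and the Reln window is chr5:22344656-22344955 (minus strand).
Acta2: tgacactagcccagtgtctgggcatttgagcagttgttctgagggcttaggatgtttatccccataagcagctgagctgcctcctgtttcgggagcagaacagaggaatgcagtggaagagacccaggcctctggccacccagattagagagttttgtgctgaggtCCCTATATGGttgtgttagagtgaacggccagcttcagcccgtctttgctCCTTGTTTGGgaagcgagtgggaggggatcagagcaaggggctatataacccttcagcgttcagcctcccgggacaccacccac
Vim: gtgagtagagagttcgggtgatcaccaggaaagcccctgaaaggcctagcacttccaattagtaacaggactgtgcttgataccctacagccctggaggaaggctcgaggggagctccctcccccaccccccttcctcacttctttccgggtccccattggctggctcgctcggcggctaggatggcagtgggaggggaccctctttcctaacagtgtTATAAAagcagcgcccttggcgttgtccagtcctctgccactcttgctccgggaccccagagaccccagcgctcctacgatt
Reln: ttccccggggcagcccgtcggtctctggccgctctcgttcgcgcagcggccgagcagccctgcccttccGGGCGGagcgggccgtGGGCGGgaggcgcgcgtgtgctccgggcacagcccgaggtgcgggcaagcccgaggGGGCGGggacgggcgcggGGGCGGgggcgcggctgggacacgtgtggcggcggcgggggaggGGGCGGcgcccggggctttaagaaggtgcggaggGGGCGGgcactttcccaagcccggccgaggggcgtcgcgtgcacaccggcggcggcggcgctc

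Acta2 held 2 CArG-type elements, at -84 to -75 and at -34 to -25 from the start, and no GC box. A CArG-type element of this kind is in 9.98% of the 32851 promoters of the same length. Vim held TATAAA at -32 to -27, a motif in 13.6% of them. Reln held 6 GC boxes and neither of the other motifs, in a window with 80.7% G and C, and a GC box is in 35.7% of all promoters. Of the other markers in the table, Lrat held 1 CArG-type element at -223 to -214 and 2 GC boxes, Des and Hhip held 2 GC boxes each and Ngfr 4. Such matches describe the letters only. Tagln and Pdgfrb had no entry in the promoter table.

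How the diet changed the markers was read from WTD against chow. Of the 9 markers, Vim and Pdgfrb were called higher and Hhip lower at an adjusted p under 0.01, against a background of 33.5% of all tested genes called in this comparison (17.5% higher and 16.0% lower). The contractile genes Acta2 and Tagln were not called, nor were Des, Lrat, Reln and Ngfr. In bulk liver, fewer stellate cells and less RNA per cell cannot be told apart, and this holds for every marker below.

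Pdgfrb stood at 4.15 to 41.9 CPM in chow mice (median 21.2), at 49.6 to 119 CPM in WTD mice (median 78.1) and at 37.9 to 70.9 CPM in atorvastatin mice (median 51.6). Every WTD mouse lay above every chow mouse, and 15 of the 16 atorvastatin mice did so too. The share of all tested genes with such a separation is not given here, so it is not known how common it is. The level was 3.64-fold higher with WTD than with chow (log2 fold change 1.87, SE 0.18, 95% interval 1.51 to 2.23, edgeR adjusted p = 5.8e-12). Both the lowest and the highest chow value came from libraries that missed many weak genes, and without all 10 libraries that stood apart the log2 fold change was 1.84.

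Vim followed the same order. It ranged from 42.7 to 86.0 CPM in chow (median 51.3), from 109 to 273 CPM in WTD (median 181) and from 83.9 to 162 CPM in the atorvastatin group (median 110). Again WTD and chow did not overlap, though the share of all tested genes that separate in this way is not given here. The highest chow value was that of mouse AZ#1. The WTD level was 3.28-fold that of chow (log2 fold change 1.71, SE 0.12, 95% interval 1.47 to 1.96, edgeR adjusted p = 1.1e-16), and the log2 fold change was 1.97 without the 10 libraries. Vimentin is also made by macrophages, whose 8 markers summed to 342 to 555 CPM in chow, 1461 to 2844 CPM in WTD and 1152 to 1944 CPM in the atorvastatin group. Of the 7 macrophage markers tested, 6 were called higher with WTD, while Itgam was at 0 in every mouse. The part of macrophages in the Vim values was not tested.

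**Figure D1:**
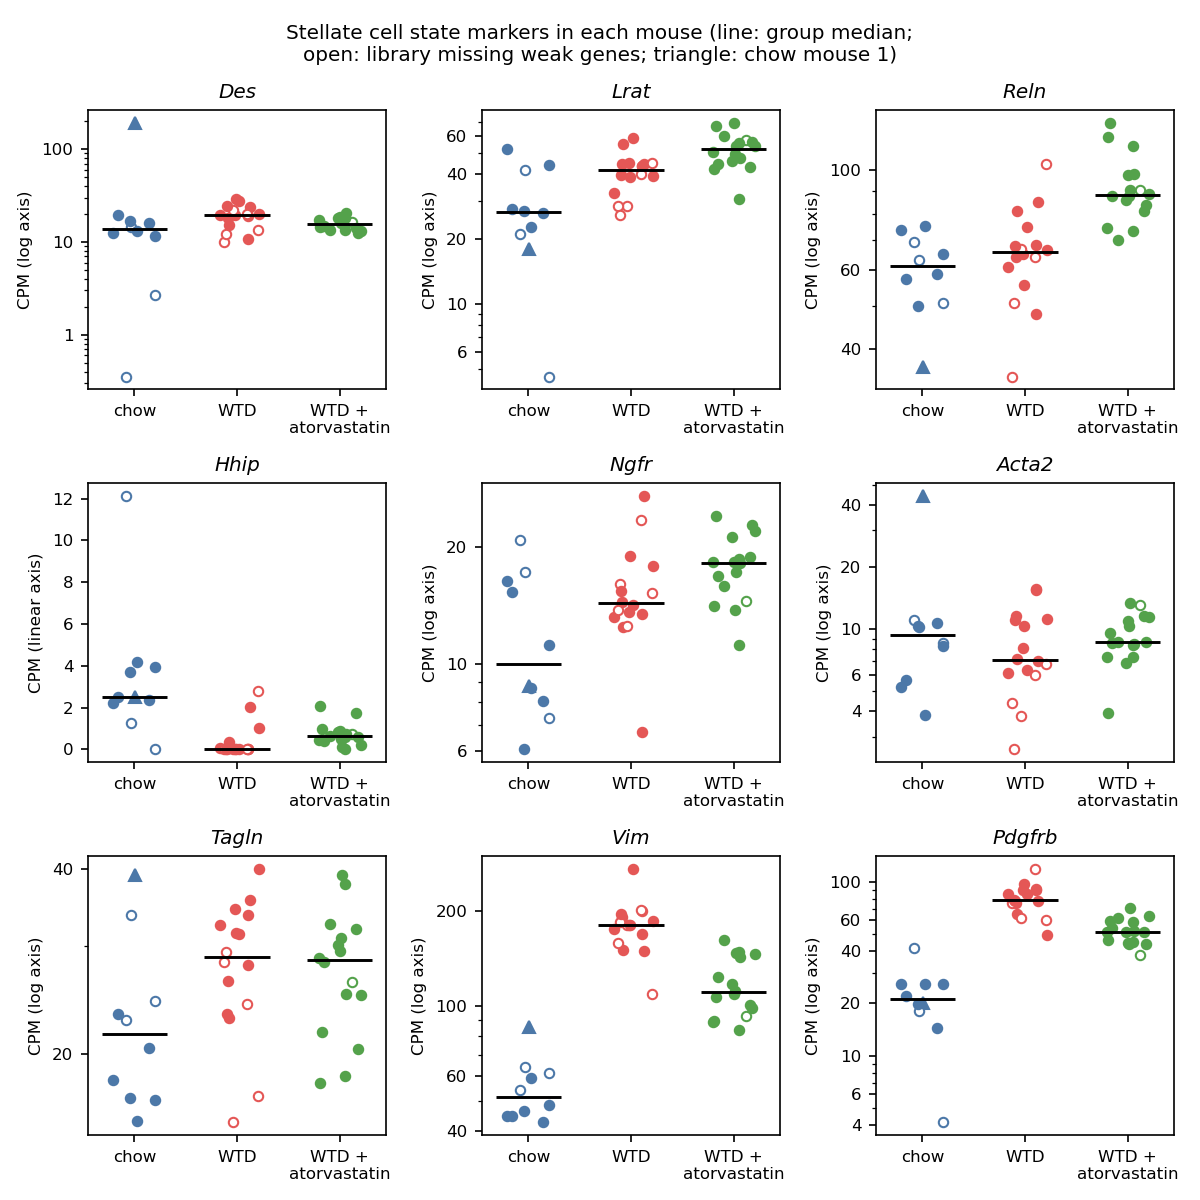
CPM of each marker in each mouse, by diet group, with the group median as a line, open symbols for the 9 libraries missing weak genes and a triangle for chow mouse 1 (AZ#1). Axes are logarithmic apart from that of Hhip, which has zeros. The WTD mice lie above all chow mice for Vim and Pdgfrb, a separation whose share among all tested genes is not given. The triangle stands far above the other chow mice for Des (191.8 CPM) and Acta2 (44.1 CPM).

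Hhip was the weakest of the markers. Chow mice had 0 to 12.1 CPM (median 2.51), WTD mice 0 to 2.79 CPM (median 0) and atorvastatin mice 0 to 2.06 CPM (median 0.621). No read was counted in 10 of 16 WTD mice, against 1 of 10 chow and 1 of 16 atorvastatin mice. By counting alone, a count of 0 allows, at 3 counts per library, up to 0.110 to 0.171 CPM in these WTD mice. Some of these mice had libraries that missed many weak genes, where genes with a mean of 1 to 2 CPM went without a count. This limit does not hold there. The mean of 0.398 CPM in WTD was lower than the 3.48 CPM in chow (fitted log2 fold change -3.10, SE 0.84, edgeR adjusted p = 0.0020), and 15 of 16 WTD mice lay below the chow median. At counts this low the fitted size depends on the model, and it ranged from -5.30 to -3.09 over 10 other fits. The highest chow value and the chow mouse without a read were in libraries that missed many weak genes. Without the 10 libraries, chow mice had 2.24 to 4.17 CPM, no read was counted in 6 of 11 WTD mice, and the log2 fold change was -3.24 (edgeR adjusted p = 0.0013). With only both groups compared in the fit the adjusted p was 0.010 and Hhip was no longer called.

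Lrat was not called between WTD and chow, but it was close to the threshold. Chow mice ranged from 4.60 to 52.5 CPM (median 26.8), WTD mice from 26.0 to 58.9 CPM (median 41.8) and atorvastatin mice from 30.6 to 69.2 CPM (median 52.4). The log2 fold change was 0.51 (SE 0.19, 95% interval 0.13 to 0.90, edgeR adjusted p = 0.026), and 15 of 16 WTD mice lay above the chow median. It was called in 5 of 11 other fits and when chow mouse 10, the highest chow value, was left out (adjusted p = 0.0038). Without the 10 libraries it was 0.40 with an adjusted p of 0.029.

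Reln and Ngfr overlapped widely between WTD and chow. Reln ranged from 36.6 to 75.0 CPM in chow (median 61.1) and from 34.8 to 103 CPM in WTD (median 65.8). Its log2 fold change was 0.14 (95% interval -0.09 to 0.37, edgeR adjusted p = 0.35). Ngfr ranged from 6.05 to 20.8 CPM in chow (median 10.0) and from 6.69 to 27.0 CPM in WTD (median 14.3), with a log2 fold change of 0.37 (95% interval 0.03 to 0.72, edgeR adjusted p = 0.075).

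Des, Acta2 and Tagln were higher in chow mouse AZ#1 than in any other chow mouse, and leaving it out turned the sign for Des and Acta2 but not for Tagln. In that mouse Des was at 191.8 CPM, while the other 9 chow mice ranged from 0.354 to 19.6 CPM (median 13.2). Acta2 was at 44.1 CPM against 3.84 to 11.1 CPM (median 8.56), and Tagln at 39.2 CPM against 15.5 to 33.6 CPM (median 20.5). Lrat, Reln and Pdgfrb, by contrast, were not raised there: Lrat was at 17.9 CPM and Pdgfrb at 20.2 CPM, both below the median of the other chow mice, and Reln at 36.6 CPM was the lowest of all chow values. Of 16 other contractile genes, 9 were higher in this mouse than in any other chow mouse and 8 higher than in all other 41 mice. Tropomyosin 2 (Tpm2) stood at 397 CPM against at most 33.5 CPM elsewhere, calponin 1 (Cnn1) at 11.4 against at most 0.703 CPM and the smooth muscle myosin Myh11 at 25.6 against at most 14.0 CPM. The part of muscle RNA in its Des, Acta2 and Tagln values was not tested.

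**Figure D2:**
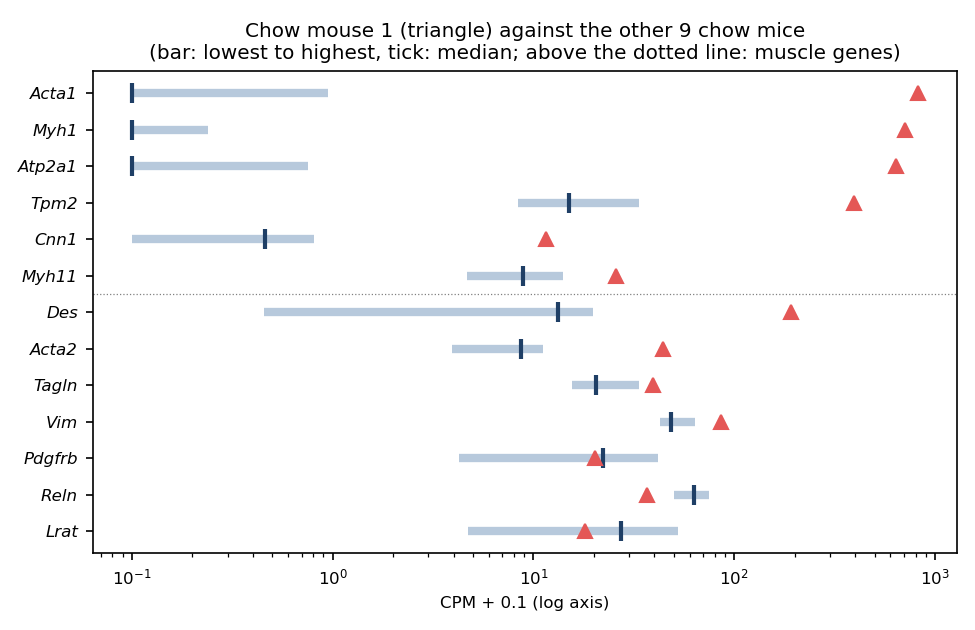
Levels in chow mouse 1 (triangle) and in the other 9 chow mice (bar from lowest to highest, tick at the median), in CPM + 0.1 on a log axis, for 7 markers and, above the dotted line, 6 muscle genes. Des, Acta2, Tagln and Vim exceed the other chow mice, as do all 6 muscle genes, while Lrat, Reln and Pdgfrb do not.

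With that mouse included, Des fell short of a call between WTD and chow with a negative sign (log2 fold change -0.65, SE 0.41, edgeR adjusted p = 0.21), although 12 of 16 WTD mice lay above the chow median. Without it the sign turned (0.68, adjusted p = 0.038), and without all 10 libraries it was 0.46 with an adjusted p of 0.011. WTD mice had 10.1 to 29.3 CPM of Des (median 19.3) and atorvastatin mice 12.3 to 20.5 CPM (median 15.5). The lowest chow values, 0.354 and 2.68 CPM, came from 2 of the libraries that missed many weak genes.

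Acta2 was not called between WTD and chow in the reported fit, in any of 11 other fits or in any of the 42 fits with 1 mouse left out. WTD mice had 2.62 to 15.6 CPM (median 7.11) and atorvastatin mice 3.93 to 13.3 CPM (median 8.67); both ranges overlap that of the chow mice. The log2 fold change from chow to WTD was -0.50 (SE 0.27, 95% interval -1.03 to 0.04, edgeR adjusted p = 0.13). It was 0.02 without AZ#1 (adjusted p = 0.94) and 0.45 without the 10 libraries (adjusted p = 0.10). The 3 lowest WTD values came from libraries that missed many weak genes.

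Tagln ranged from 15.5 to 40.0 CPM in WTD (median 28.7) and from 17.9 to 39.1 CPM in the atorvastatin group (median 28.4), against a chow median of 21.6 CPM. With all mice the log2 fold change from chow to WTD was 0.30 (SE 0.14, 95% interval 0.01 to 0.59, edgeR adjusted p = 0.091). It was 0.53 without the 9 libraries missing weak genes (adjusted p = 0.0063) and 0.74 with AZ#1 left out as well (adjusted p = 4.3e-05), so that in both of these fits Tagln was called higher. In the 6 chow mice that remain in the last fit it ranged from 15.5 to 23.2 CPM, and in the 11 WTD mice from 22.9 to 40.0 CPM.

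**Figure D3:**
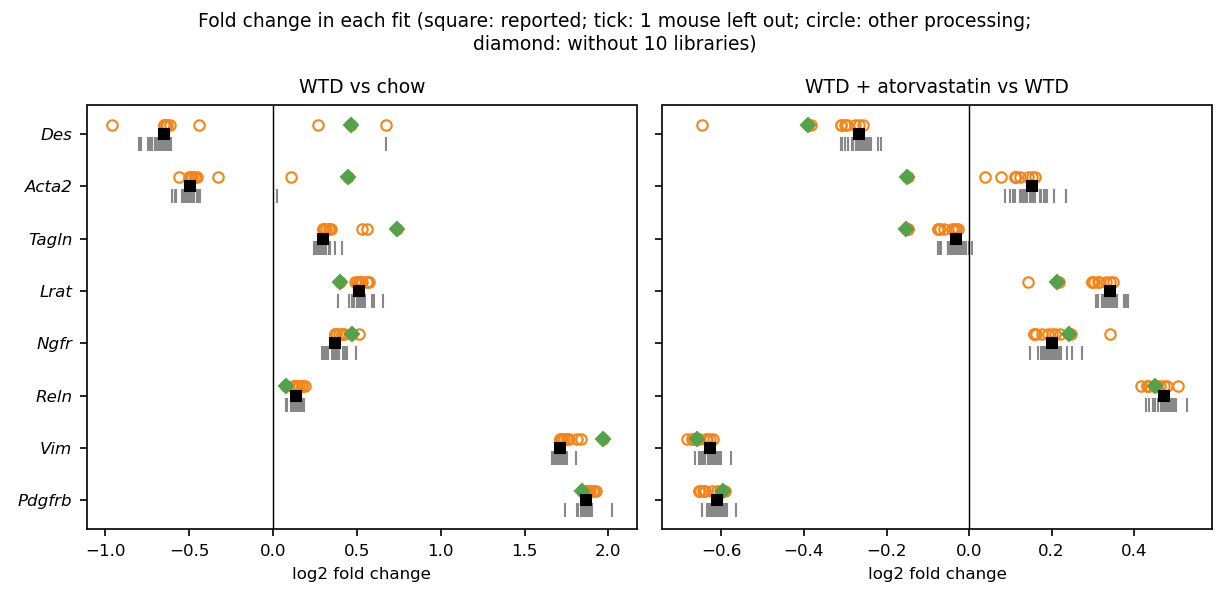
Log2 fold changes of 8 markers (Hhip is left out for its scale) in each fit: the reported one (square), those with 1 mouse left out (tick), those with other processing (circle) and the one without the 10 libraries that stood apart (diamond). In WTD against chow, Des and Acta2 lie on both sides of 0, while Vim and Pdgfrb stay above 1.66. In atorvastatin against WTD, Acta2 and Tagln lie on both sides of 0.

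How atorvastatin changed the markers was read from the atorvastatin group against WTD, both on the same diet. Vim and Pdgfrb were called lower and Reln higher, 3 of 9 markers, against a background of 7.10% of tested genes called (4.84% higher and 2.26% lower). In the called genes 68.2% were higher, a share that dropped to 54.9% with RLE in place of TMM normalization and to 50.6% with DESeq2. The 3 calls held in each of the 11 other fits and in all 42 fits with 1 mouse left out. None of the 3 changed by a log2 fold change of 1.

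Every atorvastatin mouse had less Vim and less Pdgfrb than the WTD median, and 7 mice for Vim and 6 for Pdgfrb lay below every WTD mouse. Vim was 0.648 times the WTD level (log2 fold change -0.63, SE 0.10, 95% interval -0.83 to -0.43, edgeR adjusted p = 2.8e-05). Pdgfrb was 0.654 times the WTD level (log2 fold change -0.61, SE 0.14, 95% interval -0.90 to -0.32, edgeR adjusted p = 0.0026). Macrophage markers again moved with Vim, with 4 of 7 tested called lower and 1 higher, and portal fibroblast markers, which mark the other collagen-producing cells of the liver, moved with Pdgfrb. Their 8 genes summed to 26.5 to 82.1 CPM in chow, 59.0 to 308 CPM in WTD and 67.7 to 190 CPM with atorvastatin. Of them, 6 were called higher with WTD and 3 lower with atorvastatin, and the part of these cells in the Pdgfrb values was not tested.

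Reln ranged from 70.1 to 127 CPM with atorvastatin (median 88.3), and each of the 16 mice lay above the WTD median. It was 1.39-fold higher than in WTD (log2 fold change 0.47, SE 0.10, 95% interval 0.27 to 0.68, edgeR adjusted p = 0.00082), although only 3 mice exceeded all WTD mice. Without the 10 libraries the log2 fold change was 0.45.

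For the other 6 markers the intervals of the drug effect included differences of some size, so they are not shown to be equal. Lrat had a log2 fold change of 0.34 (95% interval 0.01 to 0.67, edgeR adjusted p = 0.19), with 15 of 16 mice above the WTD median. Ngfr, at 11.2 to 24.0 CPM with atorvastatin (median 18.2), had 0.20 (-0.10 to 0.50, edgeR adjusted p = 0.45). Hhip had 0.82 (-0.68 to 2.33, edgeR adjusted p = 0.57). It was called only by limma-voom with sample weights, at 3.25. The contractile genes showed the smallest differences: Acta2 0.15 (-0.33 to 0.63, edgeR adjusted p = 0.78) and Tagln -0.03 (-0.28 to 0.22, edgeR adjusted p = 0.93). Without the 9 libraries missing weak genes Acta2 had -0.15. Des had -0.27 (-1.01 to 0.48, edgeR adjusted p = 0.75), with 15 of 16 mice below the WTD median. In this fit all groups share 1 estimate of the spread, AZ#1 included. Without the 10 libraries Des had -0.39 with an adjusted p of 0.014.

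**Figure D4:**
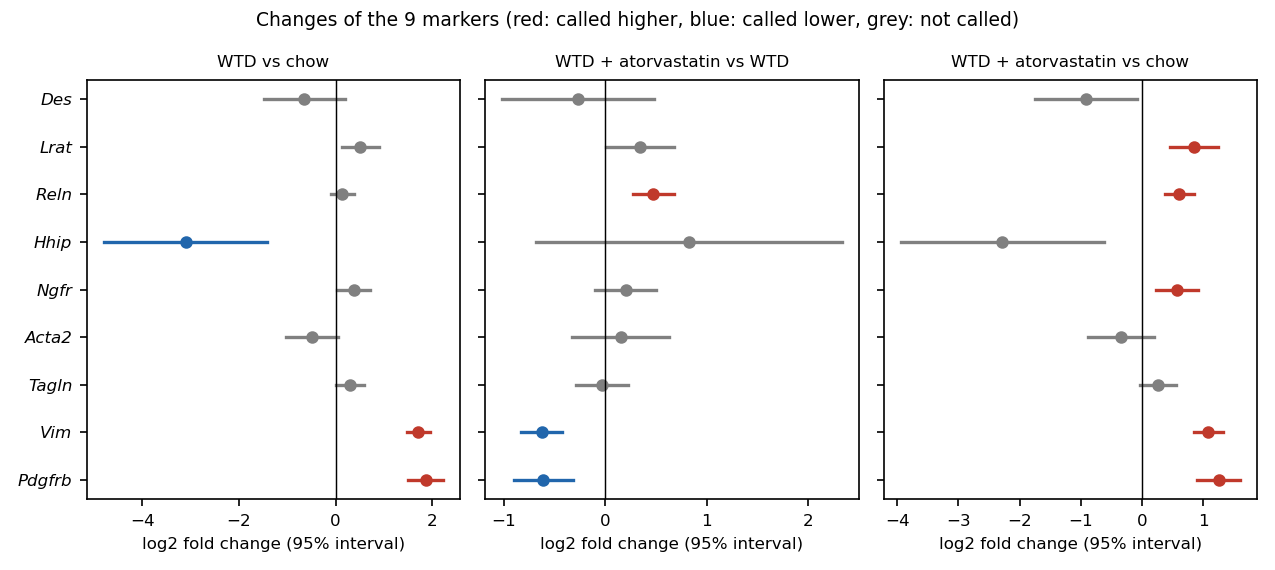
Log2 fold changes of the 9 markers with 95% intervals from the edgeR fit over all 42 mice, for the 3 comparisons, with calls at an adjusted p under 0.01 in red (higher) or blue (lower). Vim and Pdgfrb are at 1.71 and 1.87 in WTD against chow and at -0.63 and -0.61 in atorvastatin against WTD, with Reln at 0.47 in the latter.

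How far the treated mice still differed from healthy ones was read from the atorvastatin group against chow, which shares its groups with the comparisons above. Here 5 of 9 markers were called, all higher, against a background of 25.0% of tested genes (14.2% higher and 10.7% lower). Pdgfrb (log2 fold change 1.25, edgeR adjusted p = 1.3e-07) and Vim (1.09, edgeR adjusted p = 1.8e-10) were above chow. Lrat was 0.86 higher (SE 0.19, edgeR adjusted p = 0.00043), with 8 of 16 mice above all chow mice. Reln was 0.61 higher (SE 0.12, edgeR adjusted p = 3.6e-05), with 13 of 16 mice above all chow mice.

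Ngfr was 0.57 higher than in chow (SE 0.17, edgeR adjusted p = 0.0072). This call was lost in 3 of 11 other fits and in 10 of the 42 fits with 1 mouse left out, with 0.50 and an adjusted p of 0.021 without chow mouse 8. It was 0.72 without the 10 libraries, with an adjusted p of 0.0029. The mice whose removal ended the call were chow mice 1, 2, 4, 7, 8 and 9 and atorvastatin mice 4, 6, 10 and 13. Hhip was at -2.28 (edgeR adjusted p = 0.026) and was called in 2 of 10 other fits. Des (-0.92), Acta2 (-0.34) and Tagln (0.27) were not called. Without AZ#1 Des was at 0.41 and Acta2 at 0.18, and Tagln was called without the 10 libraries at 0.59 (adjusted p = 0.00073). Without only the 9 libraries missing weak genes Des was called lower, at -1.34, in a fit that keeps AZ#1.

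Per length, in RPKM (CPM per kilobase of exon), the order of the markers changed with diet. In chow, Tagln (median 10.8 RPKM) and Vim (10.8 RPKM) led, with Tagln above Vim in 4 of 10 mice and Vim above Tagln in 6. Lrat, Acta2, Pdgfrb, Des and Ngfr followed between 5.01 and 2.91 RPKM, each above its next neighbour in only 5 to 7 of 10 mice, then Reln at 2.57 and Hhip at 0.276 RPKM. In WTD, Vim (38.1 RPKM) exceeded Tagln in 16 of 16 mice. Tagln (14.4) and Pdgfrb (14.3 RPKM) could not be ordered, with Tagln higher in 8 of 16 mice, and Pdgfrb exceeded Lrat (7.81 RPKM) in all 16. With atorvastatin Vim (23.3 RPKM) and Tagln (14.3 RPKM) led, and Lrat (9.79) and Pdgfrb (9.41 RPKM) were again close, with Lrat higher in 7 of 16 mice. Without the 10 libraries, Acta2 had a median of 3.19 RPKM in chow and 4.69 RPKM in WTD, so that its place against chow turned, and Pdgfrb had 4.37 and 15.5 RPKM.

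**Figure D5:**
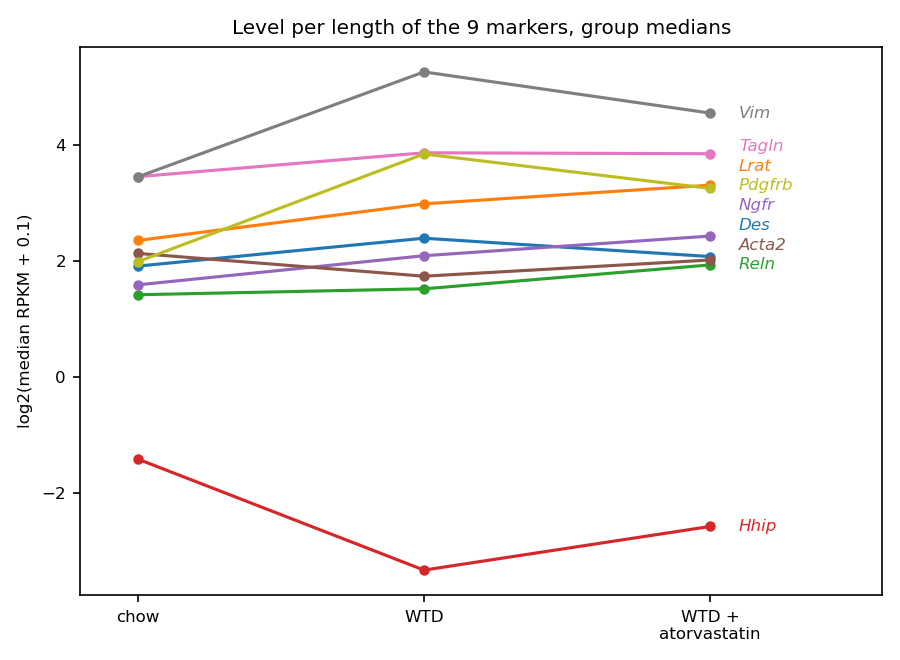
Group medians of the level per length of the 9 markers, as log2(RPKM + 0.1). Pdgfrb goes from 3.87 RPKM in chow, level with Des and Acta2, to 14.3 RPKM in WTD, level with Tagln, while Acta2 goes from 4.28 to 3.24 RPKM with all mice and from 3.19 to 4.69 RPKM without the 10 libraries that stood apart, which are included in the plot.

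The balance of markers within a mouse shows this shift. The RPKM ratio of Pdgfrb to Lrat was 0.423 to 1.93 in chow (median 0.749), 1.15 to 2.95 in WTD (median 1.97) and 0.628 to 1.86 with atorvastatin (median 1.04). That of Acta2 to Pdgfrb had medians of 1.05, 0.245 and 0.405, with the highest value, 5.43, in chow mouse AZ#1. Over the 32 mice without the 10 libraries the medians of Acta2 to Pdgfrb were 0.721, 0.274 and 0.404, with at most 1.84 in chow, and those of Pdgfrb to Lrat 0.646, 1.89 and 1.07. These ratios were not tested.

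The other genes of these pathways give the setting of the markers, described by counts and medians beside the medians of all tested genes (0.03 for WTD against chow and 0.00 for atorvastatin against WTD). Of 22 other stellate cell genes, 7 were higher and 4 lower with WTD (median log2 fold change 0.19), and 3 were higher and 3 lower with atorvastatin (median 0.04). These counts were 8 and 4, and 3 and 5, when the 10 libraries were left out. In that fit 3076 of 16007 tested genes were called higher and 2737 lower with WTD, and 1037 higher and 682 lower with atorvastatin. The counts below without the 10 libraries come from the same fit. The log2 fold changes of the 22 genes with WTD ran from -1.38 to 2.08, on both sides of 0. The small proteoglycan decorin (Dcn, 0.99) and the stellate globin Cygb (1.57) were among those higher with WTD. With atorvastatin Cygb was lower (-0.60), and the secreted factors Colec10 (1.42) and Angptl6 (0.86) were higher.

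All 5 PDGF genes besides Pdgfrb were higher with WTD (median 1.90), among them the second receptor Pdgfra (2.08) and the ligands Pdgfb (1.90) and Pdgfa (1.58). With atorvastatin only Pdgfra was called, at -0.71, and the median was -0.50. The 5 genes were also higher with WTD when the 10 libraries were left out.

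Contractile genes other than Acta2 and Tagln were mixed: of 15 tested, 6 were higher and 2 lower with WTD (median 0.27). The actin crosslinkers Actn1 (1.32) and Flna (1.48) and the transgelin relative Tagln2 (1.72) were higher. Without AZ#1, 8 were higher and 1 lower (median 0.49), in a fit that called 2742 of 15709 genes higher and 2438 lower. Tpm2 was one of those lower with all mice, at -2.46, and its value without AZ#1 was -0.74 with an adjusted p of 0.014. With atorvastatin, Tagln2 (-0.47) and Cnn2 (-0.58) were lower, and 0 were higher, and without the 10 libraries 4 were lower. Of the 6 smooth muscle markers, 4 were tested, of which Myh11 (-1.57) was called lower with WTD and 0 were called with atorvastatin. These markers largely repeat genes of the contractile list, so Myh11 is counted in both. With the 10 libraries left out, 1 of the 4 was higher and 1 lower with WTD. Their sum was 7.08 to 69.1 CPM in chow, the highest in AZ#1, 2.17 to 15.9 CPM in WTD and 7.98 to 14.8 CPM with atorvastatin. The serum response factor group (Srf, Mrtfa and Mrtfb, which act on CArG elements) had 0 of 3 called in both comparisons, with adjusted p between 0.013 and 0.87 for WTD against chow. Among these, 1 was higher with WTD and 1 lower with atorvastatin once the 10 libraries were left out.

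Around Lrat, 6 of 13 retinoid genes were lower and 1 higher with WTD (median -0.40), with Rbp4, the plasma carrier of retinol, at -0.98 and the retinaldehyde dehydrogenase Aldh1a1 at -1.07. Both are also strongly expressed by hepatocytes, whose 8 markers were all lower with WTD. The part of hepatocytes in the Rbp4 and Aldh1a1 values was not tested. With atorvastatin the retinoic acid hydroxylase Cyp26a1 (1.08) and Stra6l (0.24) were higher and 0 were lower. These numbers became 3 higher and 2 lower without the 10 libraries.

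Around Hhip, 2 of 11 hedgehog genes were higher (Smo, the signal transducer, at 0.92 and the coreceptor Boc at 2.26) and Gas1 was lower (-0.48) with WTD, and 0 were called with atorvastatin. Leaving out the 10 libraries gave 4 higher and 1 lower with WTD. Around Ngfr, 3 of 7 neurotrophin genes were higher with WTD, among them the receptor Ntrk2 (1.37) and the sorting receptor Sort1 (1.20), and 0 were called with atorvastatin. Around Reln, the receptor Vldlr was lower with WTD (-0.78), Lrp8 and Dab1 were not called, and 0 of 3 were called with atorvastatin. In the fit without the 10 libraries, 0 of the 3 were called with WTD. Of 9 other filament genes around Vim and Des, 5 were higher with WTD, among them Krt19 (1.91), Krt7 (1.78) and Nes (1.10), and 2 were lower with atorvastatin, Krt8 (-0.49) and Krt18 (-0.45). The number higher with WTD was 7 without the 10 libraries.

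Markers of other cells that could add to these values were read alongside. All 5 cholangiocyte markers were higher with WTD, which include Krt19 and Krt7 of the filament list, and 0 of 5 were called with atorvastatin. Of 8 endothelial markers, 2 were higher and 2 lower with WTD, and 2 were higher with atorvastatin. Of 6 mesothelial markers, 1 was higher with WTD and 0 were called with atorvastatin. Of 5 Schwann cell markers, which could share Ngfr, 2 were tested, with 1 lower with WTD and 0 called with atorvastatin, and Sox10 was at 0 in every WTD mouse. Of 6 T cell markers, 0 were called in either comparison. Leaving out the 10 libraries, 1 T cell, 2 mesothelial and 3 endothelial markers were higher with WTD, and 1 cholangiocyte and 1 endothelial marker were lower with atorvastatin. The part of these cells in the marker values was not tested.

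Between mice of the same group the markers did not move as one. Over the 36 pairs in each of 3 groups, 108 correlations in all, 0 passed an adjusted p of 0.05 by the permutation test, while 17 had an unadjusted p under 0.05 by Pearson's r and 9 by Spearman's rho. The pair with the smallest p was Vim and Pdgfrb in the atorvastatin group (r = 0.74, permutation p = 0.0010, adjusted p = 0.072, rho = 0.70, permutation p = 0.0031, adjusted p = 0.24), with r = 0.70 after leaving out the 2 mice farthest from the median of Vim. In WTD the same pair had r = 0.39 (permutation p = 0.14, adjusted p = 0.50). Other pairs shared the adjusted permutation p of 0.072. These were Hhip and Pdgfrb in chow (r = 0.96), Hhip and Vim in WTD (-0.66), and Reln and Tagln with atorvastatin (-0.70). Without the 2 mice farthest from the median of the first gene, r was 0.49, -0.26 and -0.57.

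Among all tested genes outside the list, the ones whose log2 CPM followed a marker most closely over the 42 mice, after the group means were taken out, differed from marker to marker. They are given as a description, since all values of a mouse share its library. Pdgfrb was followed by Ninl (r = 0.91, and 0.70 over the 32 mice without the 10 libraries) and Clmp (0.89, and 0.87). Vim was followed by the macrophage lysozyme Lyz2 (0.75, and 0.78 over the 32 mice), and Tagln by Emilin2 (0.69, and 0.59) and Actb (0.65, and 0.65). Reln was followed by C2cd2 (0.76, and 0.60), Hhip by Zdhhc9 (0.77, and 0.77) and Ngfr by Cpsf2 (0.59, and 0.60). Close genes of the others did not keep their values: Des with Oas1g had 0.82 over 42 mice and 0.25 over 32, Lrat with Brcc3 0.84 and 0.45, and Acta2 with Mmp3 0.65 and 0.30.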

How the data were processed

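Bulk RNA of livers from 42 mice was sequenced, 1 library per mouse. The authors trimmed reads with Trimmomatic, aligned them to GRCm38 with STAR 2.5 and counted reads per gene with HTSeq 0.6.1p1; the strand setting is not given in the sources used here. The deposited values are counts, without normalization. The summary lines of HTSeq, left out here, held on average 2.28% (no feature), 5.96% (ambiguous) and 4.68% (not unique) of the total, and 0 columns belonged to other samples. Symbols and exon lengths came from GENCODE vM21, with 54409 of 54446 identifiers matched. No 150-base window of any marker transcript occurs in a transcript of another gene, so exact copies do not share their reads.

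Genes passed filterByExpr (minimum count 10, total 15) and were tested with edgeR 4.0.16 (quasi-likelihood, robust, TMM) in R 4.3.3, with all mice in 1 fit, no covariate, and Benjamini-Hochberg adjustment over all 15574 genes. Log2 CPM use a prior count of 2. Correlations used 100000 permutations. The fits were tested on simulated data. Mice are the replicates. Intervals are for the fitted log2 fold change between groups, based on the spread between mice, and do not span the values of single mice.

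The markers and the 19 context lists were chosen with earlier results of these data known, the skeletal muscle list after these values were seen. Named beyond the markers are genes with the 3 smallest p in a list and comparison, defining markers at or near 0, the 3 closest genes per marker, and muscle genes named after their values were seen. A few genes that fall under this rule are not reported here. Alternatives were DESeq2 1.42.0, limma-voom 3.58.1 with sample weights, RLE and upper-quartile scaling, other filters, no robust estimation, a fit of just the pair of groups in question, a threshold of 0.05, calls limited to log2 fold changes of 1 or more, a prior count of 0.5, the share of missed weak genes as covariate, and leaving out libraries. Leaving out the 9 libraries together with chow mouse AZ#1 was added after seeing the data. Figures used Python 3.11.15 and matplotlib 3.10.9.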

Additional observations from a re-analysis of the deposited data

Results flagged for a closer look

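In the chow group, 4 markers had a highest value far from the rest, by Dixon's 95% criterion for 10 samples (the gap to the next value, as a share of the range). In mouse AZ#1, Des stood at 191.8 CPM, Acta2 at 44.06 CPM and Vim at 85.97 CPM, and this is the mouse whose library held striated muscle transcripts. In mouse AZ#5, whose library missed many weak genes, Hhip stood at 12.13 CPM. For normally distributed values, chance alone passes this criterion in about 1 in 20 groups. Whether the CPM values meet this condition was not tested, so their rate is not known. The larger groups were not examined in this way.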

How the results depend on the processing

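No paired analysis was possible because the mouse numbers of the labels are not shared between groups. Vim and Pdgfrb in all comparisons, Reln in both comparisons with atorvastatin and Lrat in atorvastatin against chow kept their calls in each of the 11 other fits and the 42 fits with 1 mouse left out. With a log2 fold change of 1 added as a threshold, 2151 genes were called in WTD against chow, with 2 markers higher and 1 lower. The same threshold called 100 genes in atorvastatin against WTD with 0 markers, and 1288 in atorvastatin against chow with 2 markers. In atorvastatin against WTD, limma-voom called 3145 genes, an adjusted p under 0.05 called 2021, leaving out the 9 libraries missing weak genes 1664, and leaving out AZ#1 as well 1719. In WTD against chow, 5 markers were called by limma-voom, where 6509 of all 15574 tested genes were called. Without the 9 libraries 5 markers were called as well, beside 5873 of 15799 genes.

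Signs turned for markers that were not called. In WTD against chow, Des was at 0.67 in DESeq2, 0.27 in limma-voom, 0.46 without the 10 libraries and 0.68 without AZ#1; DESeq2 replaced the 3222 Des counts of AZ#1 by 272 as an outlier. Acta2 was at 0.11 in limma-voom, 0.45 and 0.02 likewise. In atorvastatin against chow, Des was at 0.36 in DESeq2, 0.074 without the 10 libraries and 0.41 without AZ#1, and Acta2 at 0.19 in limma-voom, 0.30 and 0.18. In atorvastatin against WTD, Acta2 was at -0.15 without the 9 and without the 10 libraries, and Tagln at 0.0079 without WTD mouse 14 and at 0.0009 without atorvastatin mouse 14. Over all fits with 1 mouse left out, Des ranged from -0.80 to 0.68 and Acta2 from -0.60 to 0.025 in WTD against chow, Des from -1.06 to 0.41 and Acta2 from -0.45 to 0.18 in atorvastatin against chow, and Tagln from -0.076 to 0.0079 in atorvastatin against WTD. The causes were not tested. Hhip had a median of 0 counts in WTD, so in the WTD mice without a read at most an upper limit of its level is known. By counting alone this limit was 0.11 to 0.171 CPM, below the chow median of 2.51 CPM. It does not hold in the libraries that missed many weak genes. Outside them, 6 of 11 WTD mice had no read. The part of depth and of missed weak genes in these counts of 0 was not tested.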
